A study of Mus musculus with 2 samples.

Results

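The cytosolic ribosomal protein genes encode the proteins of the large (60S) and small (40S) subunits of the cytosolic ribosome. Members were the genes with a protein-coding transcript and a symbol of Rpl or Rps with a number, allowing a final a, x, l or l1, together with Rplp0, Rplp1, Rplp2 and Rpsa. The rule used symbols and transcript class, not levels, and found 82 of 55536 annotated genes. Of these, 51 belonged to the 60S and 31 to the 40S subunit, and they lay on 19 chromosomes, with 14 on chromosome 7 and 4 on the X chromosome (Rpl10, Rpl36a, Rpl39 and Rps4x).

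Their RNA was measured by total RNA sequencing after ribosomal RNA depletion, in primary bone marrow-derived macrophages (BMDM, macrophages grown in culture from marrow cells) of the mouse strain C57BL/6J. The cells had received 100 ng/ml Lipid A, the part of bacterial lipopolysaccharide that the receptor TLR4 recognises, for 30 min. The fraction is called nucleoplasmic in the sample descriptions and nuclear in other labels. The data form 1 group of 2 libraries, biological replicate 1 made from 1 µg and replicate 2 from 500 ng of RNA, of different biosamples that cite the same donor entry, so the spread between them may be technical. The labels give no age, sex, genotype beyond the strain or number of animals, and no sample without Lipid A was analysed here. The levels are therefore those of stimulated cells, with nothing to say of induction or repression.

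Ribosomal protein mRNAs are among the most abundant mRNAs of the cytoplasm, and cells make the proteins in near-equal amounts because a ribosome holds most of them as single copies. Their transcripts start with a C followed by a run of pyrimidines, the terminal oligopyrimidine (TOP) motif, through which the mTOR pathway and the protein Larp1 control translation. In the nucleus, precursor RNA of these genes is spliced and exported, and many of their introns carry small nucleolar RNAs (snoRNAs), which guide chemical modification of ribosomal RNA and are released from the excised introns. Genomes also hold many processed pseudogenes, intronless copies of these mRNAs, whose reads are hard to tell from those of the parent.

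Expected counts on annotated genes summed to 15846212 in replicate 1 and 14874879 in replicate 2, so a count of 0 allows up to 1.89e-05% and 2.02e-05% of a library (3 counts). All 8 macrophage markers were detected, with a summed level of 3025 and 3706 TPM (transcript abundance corrected for transcript length and library total). None of the 3 T cell, 3 B cell, 3 fibroblast and 3 erythroid markers was detected, and Cd3e, Cd79a, Hba-a1 and Hbb-bs were at 0 in both libraries. The 4 neutrophil markers summed to 2.11 and 4.86 TPM, with S100a9 at 1.24 and 1.09 TPM. In such bulk RNA, fewer cells of a type and less RNA per cell cannot be told apart. Among nuclear RNAs, Rn7sk stood at 123278 and 257659 TPM and Malat1 at 26578 and 19616 TPM. RNA of the mitochondrial genome took 2.18% of the counts in replicate 1 and 6.14% in replicate 2.

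The sequence around the transcription start is shown first, for members with and without the pyrimidine run. RefSeq gave a start (GRCm38.p6) for 62 of the 82 members, and 27 of these starts lay within 10 bases of the start of the member's most abundant coding transcript in the GENCODE annotation. Each line below holds 20 bases before the RefSeq start followed by the first 10 transcribed bases, 5′ to 3′ on the gene's strand. Capitals mark the longest run of C and T that touches the 10 bases either side of the start, as far as it falls in the window. The first 4 were the most abundant of these 27 members with a run of at least 6, and the last 2 the most abundant without one.

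Rps24 (chr14:24490658-24490687, + strand): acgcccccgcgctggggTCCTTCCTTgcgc

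Rps2 (chr17:24720043-24720072, + strand): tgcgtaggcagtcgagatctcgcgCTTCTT

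Rpl19 (chr11:98026904-98026933, + strand): gggcttgggCTCTCCCCTTCgcagataatg

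Rps21 (chr2:180257359-180257388, + strand): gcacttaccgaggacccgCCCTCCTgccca

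Rpl10 (chrX:74270796-74270825, + strand): ctatggttgttacagtggaagataggccgC

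Rpl41 (chr10:128549159-128549188, - strand): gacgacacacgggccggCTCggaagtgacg

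The run measured 9 bases at Rps24, which encodes a 40S protein mutated in Diamond-Blackfan anaemia, and 11 bases at Rpl19. At Rpl10 and Rpl41 it measured 3 bases, and the GENCODE start of the top coding transcript was 4 and 6 bases from the RefSeq start. A run of at least 6 was found at 35 of 62 members (56.5%), against 28.4% of 7425 promoters of other detected protein-coding genes and 30.0% of all 32851 promoters. The median run was 6.50 bases in members and 4 in both other sets. The first transcribed base was C in 30.6% of members, 14.3% of other detected genes and 16.3% of all promoters. A run could lie wholly before the start, as at Rpl19, or begin after the first base, as at Rps2. The 62 members also include those whose RefSeq start lay more than 10 bases from the GENCODE start. The shares with a run are therefore not shares of TOP starts.

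Promoter windows ran from 250 bases before to 50 bases after the RefSeq start, and each motif was searched on both strands. The letters CCGGAAG, an ETS-family core, were in 37.1% of the 62 members, 21.4% of other detected genes and 8.86% of all promoters. CTCGCGAGA was in 7 members (11.3%), against 1.79% and 0.676%. GCCATCTT, a core of YY1 sites, was in 8.06%, 5.54% and 2.75%, TATAAA in 9.68%, 6.60% and 13.6%, and CTTTTC in 24.2%, 18.6% and 21.8%. None of these motifs contains another. A match describes letters in a window and is not evidence of binding.

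Nearly all members were present in the nucleoplasmic RNA, and most stood above the median detected protein-coding gene. At least 1 TPM in both libraries was reached by 79 of 82 members (96.3%), 48 of the 60S and 31 of the 40S subunit. The share over all annotated genes was 20.7%, and over protein-coding genes 42.4%. The median member stood at 23.3 TPM in replicate 1 and 29.7 TPM in replicate 2, and the median detected protein-coding gene at 9.49 and 7.48 TPM. The median of the members' mean TPM lay at percentile 81.3 of the 9339 detected protein-coding genes, and 16 members (19.5%) were above 48.1 TPM, the limit of the top 10%.

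As a share of all annotated counts the members were small, with 0.138% in replicate 1 and 0.203% in replicate 2, for which the 95% Wilson intervals ran from 0.137 to 0.140% and from 0.201 to 0.206%. These intervals cover counting error only. The 60S genes held 0.0873% and 0.125% and the 40S genes 0.0511% and 0.0788%. Levels per gene were close between subunits, with medians of 24.8 and 29.7 TPM for detected 60S genes and 21.8 and 31.2 TPM for 40S genes.

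**Figure D1:**
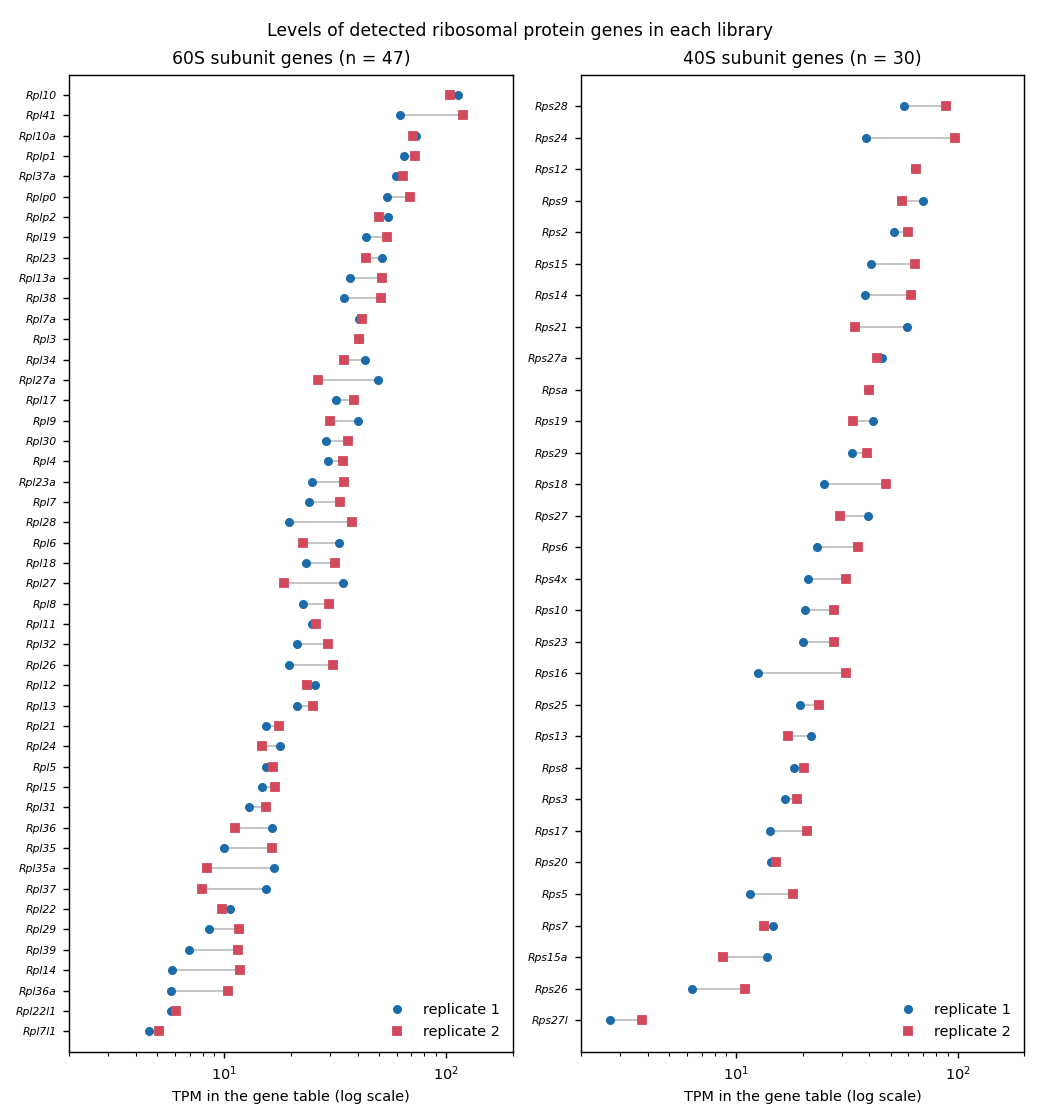
TPM of 77 of the 79 detected members in replicate 1 (circles) and replicate 2 (squares), on a log axis, with 60S genes on the left and 40S genes on the right, ordered by the mean of both libraries. Of the 76 core members 54 lie within 2-fold of 28.2 TPM, and Rpl10 is highest and Rps27l lowest by the mean.

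The 76 members that are not paralogs named with a final l or l1 spanned mean levels of 8.09 to 109 TPM, a 13.4-fold range. Their median was 28.2 TPM with quartiles of 17.3 and 44.2 TPM, and 54 of the 76 lay within 2-fold of that median. Another 10 lay above and 12 below these limits. Exons of 19 of the 82 members overlap exons on the opposite strand, and their levels are uncertain if counting ignored strand. Of the members described here these are Rps28, Rpl10a, Rps2, Rps27a, Rps18, Rpl12, Rpl5, Rpl22l1, Rpl15 and Rpl31. The order of members was similar in both libraries, with a Spearman correlation of 0.860 over 79 members, against 0.943 over 9339 protein-coding genes whose levels span a wider range. These points share library, depth and annotation.

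Among the large-subunit genes, Rpl10 was highest by the mean, with 114 TPM in replicate 1 and 104 TPM in replicate 2 (109 ± 7.19, SD, n = 2), from 1001 and 1269 counts. It encodes the protein that joins the 60S subunit late, near the peptidyl transferase centre, and lies on the X chromosome at 74270812 to 74273135 (ENSMUSG00000008682.13, mm10). Rpl41, which encodes a very short peptide at the subunit interface, had 62.3 and 120 TPM, and its credibility bounds, as deposited, did not meet (51.3 to 66.6 and 105 to 124). Rpl41 was thus below Rpl10 in replicate 1 and above it in replicate 2, and the pair cannot be ordered beyond the spread. Rpl10a, the protein of the L1 stalk that contacts the exit-site tRNA, had 73.7 and 71.1 TPM. Rpl37a, a zinc-finger protein of the 60S core, had 59.7 and 64.1 TPM.

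The P stalk of the 60S subunit recruits elongation factors, and its genes were high as a set. Rplp1 had 64.9 and 73.0 TPM, Rplp0 had 54.4 and 68.9 TPM, and Rplp2 had 54.8 and 50.1 TPM. Rplp1 was above Rplp2 in both libraries, and the values of Rplp0 overlapped those of both others.

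Among the small-subunit genes, Rps28 was highest by the mean with 57.2 and 89.0 TPM, followed by Rps24 with 38.7 and 96.8 TPM. Rps28 sits near the path by which mRNA leaves the subunit, and the opposite-strand gene that overlaps it is Kank3. Rps12, a protein of the 40S beak, had 64.4 and 64.6 TPM. Rps9, which contributes to decoding accuracy, had 69.9 and 55.8 TPM. The replicate 2 values of Rps28 and Rps24 exceeded those of Rps12 and Rps9 and the replicate 1 values did not, so these 4 genes cannot be ordered beyond the spread.

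The lowest detected members included 3 paralogs and several core genes. Rpl36a had 5.75 and 10.4 TPM from 29 and 63 counts, the lowest mean of a core gene. Rps26, which contacts the mRNA upstream of the start codon, had 6.34 and 11.0 TPM. Rpl14 had 5.81 and 11.8 TPM, and Rpl39, a small protein lining the exit tunnel, had 6.95 and 11.5 TPM. All 4 were higher in replicate 2.

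Paralogs of core proteins, which are known for use in particular tissues, were low or at 0. Rpl3l, the striated muscle form, had 0 counts in both libraries of the gene tables, against 40.5 and 40.4 TPM for its partner Rpl3. The testis retrogene Rpl10l had 0 counts, against 114 and 104 TPM for Rpl10, and Rpl39l, also high in testis, had 0 counts, against 6.95 and 11.5 TPM for Rpl39. Deposited upper credibility bounds for the 3 paralogs ran from 0.164 to 0.649 TPM. Rpl22l1 stood at 5.78 and 6.04 TPM, against 10.6 and 9.83 TPM for Rpl22. The bounds of Rpl22l1 were wide, 5.19 to 103 TPM in replicate 1 and 5.39 to 51.1 TPM in replicate 2, so the order of this pair was not fixed. Rpl7l1, whose product is linked to assembly of the 60S subunit, stood at 4.56 and 5.07 TPM, against 24.2 and 33.4 TPM for Rpl7. Rps27l, a known p53 target gene, stood at 2.71 and 3.76 TPM from 13 and 24 counts, against 39.5 and 29.4 TPM for Rps27.

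The symbol rule misses some genes of proteins of the same ribosome, and the levels of 3 of them fell in the members' range. Fau, which encodes Rps30 fused to a ubiquitin-like protein, had 56.4 and 99.2 TPM. A member with a similar arrangement, Rps27a, whose protein is made as a fusion to ubiquitin, had 45.7 and 43.3 TPM. Rps3a1 had 32.5 and 46.9 TPM and Rpl36al 7.65 and 10.5 TPM. All 3 missed genes had more counts in replicate 2, with 264 and 605 counts at Fau, 417 and 754 at Rps3a1 and 50 and 77 at Rpl36al.

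The 5S particle, built from 5S ribosomal RNA with Rpl5 and Rpl11, binds Mdm2 when ribosome assembly is disturbed, which stabilises p53. These genes and those of the next sentences were picked for their roles with values known. Rpl5 had 15.4 and 16.7 TPM and Rpl11 had 24.8 and 25.9 TPM, and the bounds of the pair did not meet in either library (for Rpl5 12.4 to 18.3 and 13.2 to 19.8, for Rpl11 21.6 to 30.2 and 22.4 to 29.6). Mdm2 itself stood at 318 and 107 TPM. Rps6, the substrate of S6 kinases, had 23.2 and 35.6 TPM, and Rps19, the gene most often mutated in Diamond-Blackfan anaemia, had 41.3 and 33.8 TPM. Rps14, which lies in the region lost in the human 5q- syndrome, had 38.0 and 61.8 TPM.

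Genes that act with the members were set beside them as lists. The 18 other TOP mRNAs, mostly translation factors, were all detected, at a median of 27.2 TPM, led by Eef1a1 at 671 and 688 TPM. Of 20 ribosome assembly factors 16 were detected, at a median of 4.46 TPM, and of 12 genes of RNA polymerase I and its factors 11 were detected (median 4.14 TPM). Of 12 mTOR and S6 kinase pathway genes 11 passed the same limit (median 15.5 TPM), and Larp1, which binds the TOP motif, had 19.9 and 15.3 TPM. Of 78 mitochondrial ribosomal protein genes, encoded in the nucleus as well, 61 were detected, at a median of 2.69 TPM, against 26.4 TPM for the cytosolic members.

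Members differed widely in the form of their RNA. Each gene's TPM was split by the class of its annotated transcripts. Coding transcripts are annotated with a reading frame, which need not be complete, and retained-intron transcripts keep intron sequence. Nonsense-mediated decay (NMD) transcripts carry an early stop codon, and processed transcripts have no annotated reading frame. Reads of unspliced precursor fall on retained-intron models too, so these classes cannot be told apart from unfinished splicing.

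Summed over members, coding transcripts held 68.0% of the TPM in replicate 1 and 78.6% in replicate 2, and retained-intron transcripts held 23.4% and 13.1%. NMD transcripts held 3.17% and 4.46%, and processed transcripts 5.41% and 3.78%. The median member had 74.2% and 87.7% of its TPM in coding transcripts, and the median detected protein-coding gene 74.3% and 76.9%. Retained-intron shares had medians of 19.3% and 8.25% in members and 11.2% and 9.73% in detected protein-coding genes. Of the 79 detected members 72 had more than 1 transcript class. Among detected protein-coding genes with more than 1 class, the retained-intron medians were 17.9% and 15.8%. The coding medians of those genes were 68.2% and 70.6%. A mean coding share below 50% was found in 15 of 79 members (19.0%), against 20.5% of detected protein-coding genes.

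**Figure D2:**
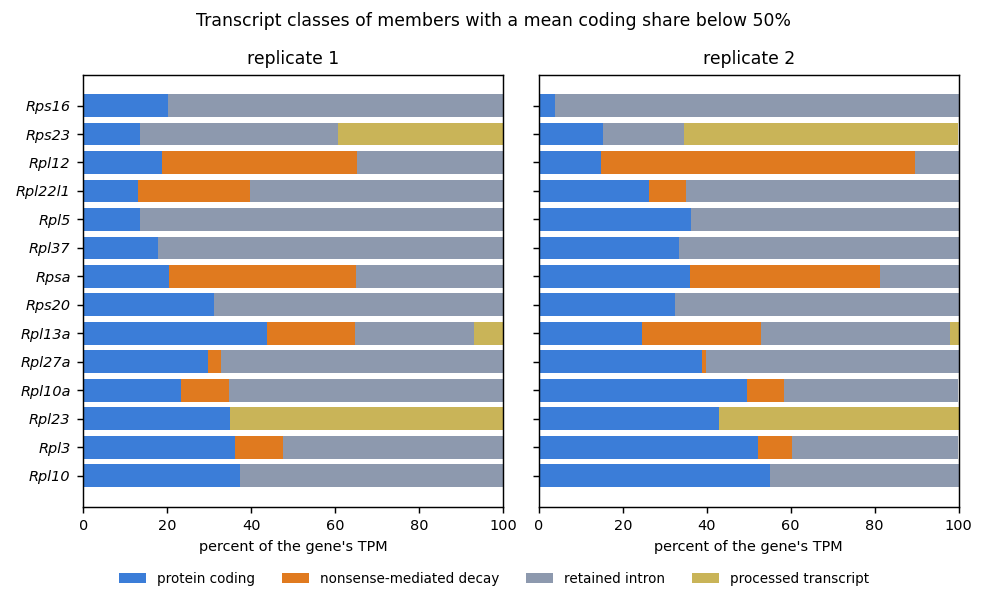
Percent of the gene's TPM in each transcript class (colours), for 14 of the 15 members whose mean coding share was below 50%, in replicate 1 (left) and replicate 2 (right). Retained-intron transcripts fill most of Rps16 and Rpl5, NMD transcripts most of Rpl12 in replicate 2, and processed transcripts most of Rpl23 in both and of Rps23 in replicate 2.

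In the first transcript tables, from which these shares come, the lowest mean coding share belonged to Rps16, a 40S protein whose tail reaches the peptidyl-site tRNA, at 20.2% in replicate 1 and 3.84% in replicate 2. Its transcript Rps16-203, a retained-intron form of 518 bases, held 47.4% and 85.0% of the gene, from 29.5 and 173 counts. Rps16 spans 28350652 to 28353155 on chromosome 7 (ENSMUSG00000037563.15). Of the bases of Rps16-203, 86.9% lie in exons of coding transcripts, so its assignment rests on a short stretch. In the second tables the mean coding share of Rps16 was 29.6%, with the lower value, 19.3%, again in replicate 2, and 10 detected members had a lower mean.

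Rps23, a protein of the decoding centre, followed with 13.5% and 15.4%. Its processed transcript Rps23-203 held 39.4% and 65.2% of the gene, and its retained-intron transcript Rps23-202 held 47.1% and 19.3%. The leading form thus differed between libraries while the coding share stayed close. The second tables did not show that change, with Rps23-202 ahead of Rps23-203 in both libraries, at 6.10 against 3.87 TPM and 3.67 against 2.04 TPM.

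Rpl12, a protein of the GTPase-associated centre, had a coding share of 18.8% and 14.8%. Mammalian Rpl12 and Rpl3 are known for splice forms that their own proteins favour and that end in NMD. The NMD transcript Rpl12-201 held 46.4% and 75.0% of Rpl12, from 102 and 193 counts. In the second tables Rpl12 had the lowest mean coding share of all detected members, 1.20% and 5.34%. At Rpl3 the NMD transcript Rpl3-205 held 11.4% and 8.17%, and the retained-intron transcript Rpl3-204 held 33.6% and 26.7%. Exons of Lrsam1 on the opposite strand overlap Rpl12.

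Rpl22l1 had coding shares of 13.0% and 26.2% and Rpl5 of 13.6% and 36.2%. At Rpl5 the rest, 86.4% and 63.8%, was in retained-intron transcripts, while the second tables gave a coding share of 37.4% and 32.0%. Coding transcripts of Rpl10, the member highest by the mean in the gene tables, held 37.4% and 55.0%. A large part of its RNA was thus assigned to intron-containing forms. In the second tables the coding share of Rpl10 was lower still, at 13.8% and 21.4%.

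An NMD transcript also led at Rpsa, a 40S protein also known as the laminin receptor. Rpsa-206 held 44.8% and 45.3% of its gene. Of its bases, 93.4% lie in exons of coding transcripts, so few reads can separate these classes.

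**Figure D3:**
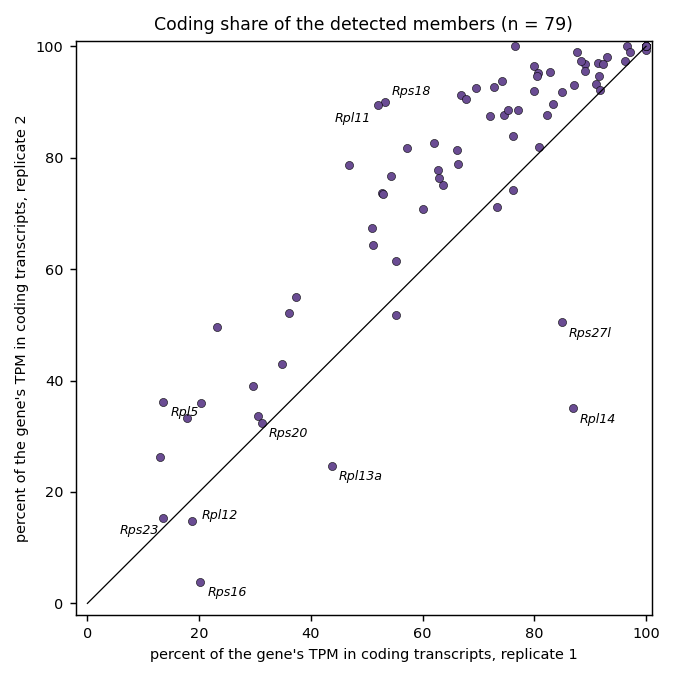
Percent of each detected member's TPM in coding transcripts in replicate 1 (horizontal) and replicate 2 (vertical), with a line of equal values. Of 72 members with more than 1 transcript class, 63 lie above the line, and Rpl14, Rps27l, Rpl13a, Rps16 and Rpl12 are among the 9 below it.

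The coding share was higher in replicate 2 than in replicate 1 in 63 of the 72 members with more than 1 class (87.5%), against 52.7% of such protein-coding genes. In the second tables it was higher in replicate 2 in 59 of 72 (81.9%), against 62.3%. The retained-intron share was lower in replicate 2 in 58 of 64 members (90.6%), against 53.3%. Rpl14 went the other way, with 86.9% coding in replicate 1 and 35.0% in replicate 2, where the NMD transcript Rpl14-205 held 65.0%, from 0.0600 and 62.8 counts. Of the bases of Rpl14-205, 99.8% lie in exons of coding transcripts, so almost no read tells it from the coding form. Counts in bases that belong to exons of coding transcripts, whatever the class, had a median share of 89.9% in replicate 1 and 94.0% in replicate 2.

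A total of 56 annotated snoRNA genes lay inside 29 of the 82 members (35.4%), 20 of the 60S and 9 of the 40S subunit, and all 56 lay in introns. Detected host genes had a median of 28.9 TPM in replicate 1 and 31.2 TPM in replicate 2, and the other 50 detected members 22.9 and 29.7 TPM. In the gene tables counts fell on 12 of the 56 snoRNA genes, 281 in replicate 1 and 159 in replicate 2, and 44 had 0 in both. In these tables the shortest snoRNA gene with a count measured 129 bases, in a set that ran from 65 to 203 bases, and 55 of 56 had an effective length under 10 bases in both libraries. By the second quantification, 35 of the 56 had at least 1 count, 643 and 579 in all, among them genes of 65 bases (Gm23301 with 21 and 6 counts, Gm26202 with 26 and 18, both in Rpl17). The labels give a library size range that lies above the length of all 56, so their TPM is not given here, and a 0 is not a sign of absence.

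Most of the snoRNA counts of the gene tables fell in 2 hosts, Rps3 with 188 and 104 and Rpsa with 57 and 42. The snoRNA sequences are shown for that reason, 5′ to 3′ on the gene's strand in mm10. Capitals mark the C box (TGATGA) and D box (CTGA) of the box C/D snoRNAs, and the ACA box of Gm26448.

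Snord15b (Rps3, chr7:99479563-99479707, - strand): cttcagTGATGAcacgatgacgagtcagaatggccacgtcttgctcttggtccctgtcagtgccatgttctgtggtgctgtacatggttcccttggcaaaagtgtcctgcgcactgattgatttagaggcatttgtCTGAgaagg

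Snord15a (Rps3, chr7:99482785-99482932, - strand): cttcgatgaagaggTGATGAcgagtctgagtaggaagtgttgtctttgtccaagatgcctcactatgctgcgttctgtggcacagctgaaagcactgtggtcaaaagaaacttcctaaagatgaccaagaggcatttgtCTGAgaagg

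Gm26448 (Rpsa, chr9:120129351-120129553, + strand): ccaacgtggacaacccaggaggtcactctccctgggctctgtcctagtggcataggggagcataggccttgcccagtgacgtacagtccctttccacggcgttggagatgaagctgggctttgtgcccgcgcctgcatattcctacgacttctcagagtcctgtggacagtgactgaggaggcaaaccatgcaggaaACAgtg

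Snord15b had 116 and 38.8 counts and Snord15a 72 and 65 counts, inside Rps3 with 467 and 575 counts. Rps3 encodes a protein of the mRNA entry channel. Gm26448 had 57 and 42 counts inside Rpsa (545 and 833 counts). In the gene tables these 3 snoRNA genes had more counts in replicate 1, while their hosts had more in replicate 2. In the second tables that held for Snord15b alone, with 125 and 77.3 counts, and Snord15a had 92 and 116 and Gm26448 84 and 100. Gene-table counts were few on Gm22270 in Rpl5 with 4 and 5 counts, Snora21 in Rpl23 with 3 and 1, and Snora70 in Rpl10 with 3.61 and 0.

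Pseudogenes named after members took few of the counts, and pseudogenes under other names were not summed. Of 292 pseudogenes named after 60 members, 205 had 0 counts in both libraries and 11 had at least 10 in both. Together they held 594 counts in replicate 1 and 779 in replicate 2. That is 2.64% and 2.51% of the counts on members and these pseudogenes together. In the second tables the shares were 4.71% and 3.73%. In the gene tables Rpl36, a small 60S protein, was the 1 parent with over 20% on pseudogenes in both libraries. Its shares were 59.6% and 22.2%, with 44 and 42 counts on Rpl36 itself. Its level of 16.4 and 11.2 TPM is uncertain for that reason. Rpl26 had 32.2% and 8.68%, Rpl31 18.2% and 23.1%, and Rpl15 14.7% and 25.6%. Other parents had large pseudogene counts in the second tables. There the pseudogenes of Rpl28 had 141 and 229 counts, beside 150 and 395 on Rpl28. Those of Rps23 had 43.2 and 230 counts, beside 172 and 205 on Rps23. The split between member and pseudogene thus depends on the quantification at these parents.

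The deposited second set of transcript tables, which was made from the reads without the alignment, gave lower levels for most members. The median log2 of gene-table TPM over second-table TPM was 0.98 in replicate 1 and 1.14 in replicate 2 for 79 members, and 0.77 and 0.78 for 8561 protein-coding genes. The order of members was alike, with Spearman correlations of 0.834 and 0.890 between tables that share their reads.

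**Figure D4:**
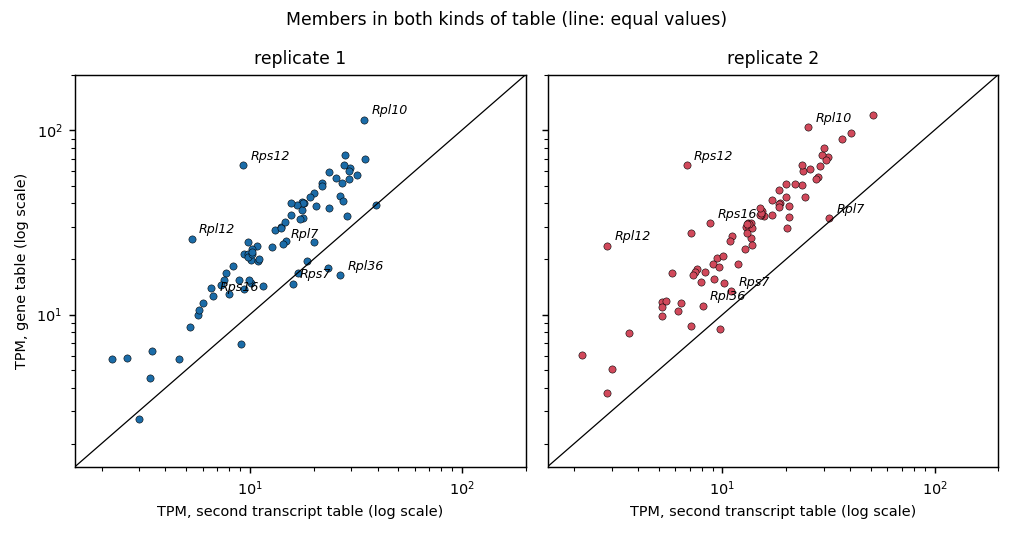
TPM of the 79 detected members in the gene table (vertical) and in the second transcript table (horizontal), on log axes, for replicate 1 (left) and replicate 2 (right), with a line of equal values. Most members lie above the line, Rps12, Rpl12 and Rpl10 farthest, and Rpl36 lies below it in replicate 1.

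The widest gap was at Rps12, with 64.4 and 64.6 TPM in the gene table against 9.30 and 6.79 TPM in the second table, from 434 and 482 counts against 234 and 263 counts. Rpl12 had 25.8 and 23.6 TPM against 5.33 and 2.87 TPM, and Rpl10 had 114 and 104 TPM against 34.7 and 25.4 TPM. Rps23 had 20.0 and 27.6 TPM against 11.0 and 7.10 TPM, and Rpl22l1 had 5.78 and 6.04 TPM against 2.25 and 2.18 TPM. The levels of these 5 genes thus depend on the quantification.

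At the other end, Rpl35a had 16.8 and 8.33 TPM in the gene table against 16.8 and 9.76 TPM in the second table, and Rpl36 had 16.4 and 11.2 TPM against 26.7 and 8.08 TPM. Rpl24 had 17.8 and 14.8 TPM against 23.4 and 10.2 TPM, Rps7 had 14.7 and 13.4 TPM against 15.9 and 11.0 TPM, and Rps27l had 2.71 and 3.76 TPM against 3.01 and 2.85 TPM. These 5 were close in both tables when the libraries are averaged. Rpl7 had 346 and 605 counts in the gene table and 448 and 2062 in the second table, so its excess in replicate 2 was wider there.

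The last comparison set the libraries against each other, replicate 1 over replicate 2, and describes these libraries, not a treatment. Members took a larger share of replicate 2. Log2 ratios of TMM-scaled counts were taken for genes whose mean count reached 50. Their median over 76 members was -0.64, with -0.61 for 46 genes of the 60S and -0.73 for 30 genes of the 40S subunit. Over all 10444 genes at that level it was 0.03. The ratio was below 0 for 67 of 76 members (88.2%), against 47.6% of all genes.

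**Figure D5:**
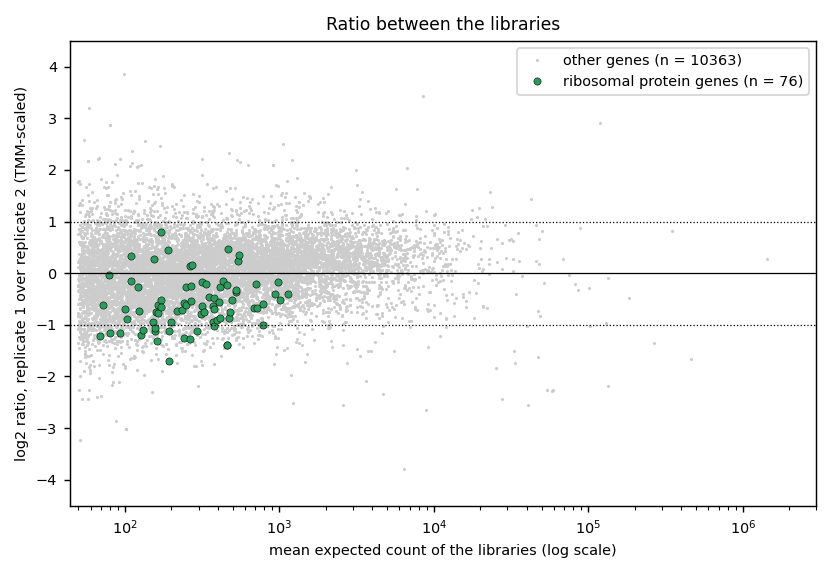
Log2 ratio of TMM-scaled counts, replicate 1 over replicate 2 (vertical), against the mean expected count (horizontal, log axis), for 76 members (green) and 10363 other genes (grey), without 5 genes at 0 in 1 of the libraries and 3 other genes outside the axis. Dotted lines mark 2-fold, and 67 of the 76 members lie below 0.

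A ratio beyond 2-fold with deposited credibility bounds that did not meet after the same scaling was found for 16 members (21.1%), all higher in replicate 2, against 4.45% of all genes in that direction. In the other direction there were 0 members, against 3.42% of all genes. The 16 comprised 7 of the 60S and 9 of the 40S genes. With the ratio taken of TPM, whose median over all genes was 0.44, 5 members were higher in replicate 2, against 1.34% of all genes, and 1 was higher in replicate 1, against 14.0%.

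Among the lowest ratios, Rpl41 had 259 counts in replicate 1 and 653 in replicate 2 (-1.40), Rps16 had 96 and 227 (-1.31), and Rps18, a protein of the 40S head, had 159 and 368 (-1.27). Opposite-strand exons of Vps52 overlap Rps18. Near the limit, Rps4x stood at -1.02 and was counted, while Rps24, with 541 and 1033 counts, lay just inside it.

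The highest ratio was at Rpl35a, with 221 and 121 counts (0.80), followed by Rpl27a with 545 and 379 (0.46), Rpl27 with 225 and 158 (0.44), Rpl9 with 627 and 468 (0.36) and Rpl37 with 125 and 95 (0.33). All 5 are 60S genes and none was beyond 2-fold. With 1 library on either side, the ratios have no replicate check.

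Transcript classes moved unequally between the libraries. Summed over detected members, coding transcripts had 14194 counts in replicate 1 and 23071 in replicate 2 (log2 ratio -0.77), and NMD transcripts 734 and 1330 (-0.92). Retained-intron transcripts had 6063 and 4888 counts (0.25), and processed transcripts 930 and 976 (-0.13). In the other detected protein-coding genes the ratio was -0.04 for coding, 0.37 for retained-intron, 0.32 for processed and 0.37 for NMD transcripts.

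Other RNAs moved with the members. The 13 abundant housekeeping mRNAs had a median log2 ratio of -0.74, with 13 of 13 below 0 and 2 beyond 2-fold, and the 18 other TOP mRNAs had -0.42, with 16 below 0 and 3 beyond 2-fold. The 13 mitochondrially encoded mRNAs had -2.27, with 10 beyond 2-fold, all higher in replicate 2. By contrast the medians were -0.05 for 32 mitochondrial ribosomal protein genes encoded in the nucleus (1 beyond 2-fold, higher in replicate 2), -0.01 for ribosome assembly factors, -0.20 for RNA polymerase I factors and 0.17 for mTOR pathway genes. The macrophage markers had -0.23. Of the 4 nuclear RNAs listed, Rn7sk was higher in replicate 2 (-1.66), while Malat1 (0.27), Neat1 (0.81) and Xist (0.88) were higher in replicate 1. The part of mitochondrial and other cytoplasmic RNA in the members' difference was not tested, and the amount of starting RNA and the library cannot be told apart.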

How the data were processed

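For each library the authors deposited 1 table of genes and 2 of transcripts, quantified against GENCODE M21 and mm10 according to their text files. No source used here names the programs; the headers have the form that RSEM and kallisto write. The authors' gene and first transcript tables give expected counts and TPM, per the file headers. Isoform percent, a transcript's part of its gene, is in the first transcript table per the file headers, and the gene table credibility bounds of TPM (a signal value here) whose level is not stated. The second deposited tables give estimated counts and TPM, and were summed per gene. The strand setting of the counting was not given in the sources used here.

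Features without an annotated gene ID (26345 rows, 1.19% and 0.213% of expected counts) stayed out of totals. Detection meant TPM of at least 1 in both libraries. Expected counts were rounded and scaled by TMM (edgeR 4.0.16, R 4.3.3). Ratios used genes whose mean count reached 50. Coding shares of single members in the second tables were added after seeing the data. DESeq2 1.42.0 size factors, from such genes, were an alternative. With 1 group there are no p-values. Class shares are sums of the isoform values of TPM within a gene, and transcripts named in the text take the deposited isoform percent. Promoters came from RefSeq GRCm38.p6, snoRNA sequences from GENCODE M21. The scaling and the library ratios were tested on simulated counts.

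Named members were the 10 highest and 10 lowest by mean TPM, the 5 largest ratios per direction between libraries and between tables, the 5 lowest coding shares, the 5 hosts with most snoRNA counts, and all paralogs with their partners. Genes named outside this rule were picked with their values seen, and a few genes within it are left unnamed, though counts and medians include them. The members and lists were chosen with earlier results of these data known.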

Additional observations from a re-analysis of the deposited data

Results flagged for a closer look

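Rpl3l, the striated muscle paralog of Rpl3, was listed at 0 counts in both gene tables. The second transcript table gave it 3 estimated counts in replicate 1 and 4 in replicate 2. The value of 4 in replicate 2 was flagged because it is above the 3 counts that a count of 0 allows. That limit was set on the 14874879 counts of the gene table. The second table, which the levels of the report do not use, held 25815351 counts in replicate 2. As a share of its total, the value of 4 is not above the limit, so it does not contradict the 0.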

How the results depend on the processing

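Of 47 alternative values of 8 summary results, 39 stayed close to the reported value and 8 moved. With the second transcript tables the median of the members' mean TPM was 13.7 in place of 26.4, the median log2 library ratio -0.46 in place of -0.64, the mean count on hosted snoRNA genes 611 in place of 220, and the mean count on pseudogenes 1592 in place of 687. A ratio of TPM in place of TMM-scaled counts gave a median of -0.22, but it also moved the median of all genes to 0.44, so the members stood at -0.66 relative to it, against -0.67 with TMM. It left 6 members beyond 2-fold, 1 higher in replicate 1 and 5 higher in replicate 2, against 14.0% and 1.34% of all genes. At 1.5-fold 41 members were beyond the limit, 1 higher in replicate 1 and 40 higher in replicate 2, against 11.5% and 11.3% of all genes. The median coding share was 92.0% in place of 79.7% when counted over bases of coding exons, an alternative chosen after seeing the data. With 1 library left out, the median level ranged from 23.3 to 29.7 TPM, the share of counts from 0.138 to 0.203%, the median coding share from 74.2 to 87.7%, snoRNA counts from 159 to 281 and pseudogene counts from 594 to 779, and detected members stayed at 79. No paired analysis was possible because there is 1 group. The precision is limited to counting error and the spread of 2 libraries.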
